A study of Solanum lycopersicum with 3 samples.

Results

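The genes described here are the ethylene receptors and EIN2 of tomato (Solanum lycopersicum). They were chosen by symbol: the probe sets named ETR1, ETR2, LOC544279 (older name ETR3), ETR4, ETR6 and EIN2 by the array's platform annotation or the current RefSeq gene table. The rule found 6 genes with 1 probe set each, of 802 named genes (909 named probe sets) and 10038 probe sets that are not array controls. All 6 probe sets have the plain suffix of designs meant for 1 transcript, and none has a suffix of a cross-hybridising design. With 1 probe set per gene, no second probe set checks any of these values.

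RNA came from fruit pericarp, the fleshy fruit wall, of the cultivar Ailsa Craig, and each preparation was read on 1 Affymetrix tomato GeneChip, so each of the 3 groups is 1 array. In the Ex2 pellet group, RNA was taken, again by the Ex2 method, from cell debris spun out of an Ex2 homogenate at 10000 x g for 15 minutes. In the Ex2 group, RNA came from the supernatant of such a spin, after homogenising 10 to 12 g of tissue in 2 ml per g of a salt-rich Tris buffer with sucrose and magnesium; detergent and phenol were added only after the debris had gone. In the Ex1 group, 10 to 12 g of tissue went into 1 ml per g of a phenol-containing buffer and was mixed with phenol and chloroform at once, with no earlier spin. The labels give no fruit stage and do not say whether the preparations shared fruit. The ripening markers PG2, E8, EXP1, Psy1, TBG4, RIN and NOR, 7 of 8 listed, all reached the brightness floor defined below on each array.

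Ethylene receptors sit in the membrane of the endoplasmic reticulum and bind the hormone within their membrane-spanning part. Without ethylene they keep CTR kinases active, and those kinases hold EIN2, another endoplasmic reticulum membrane protein, in check. When ethylene binds, EIN2 is released from this check and a soluble part of it promotes the nuclear EIL transcription factors, which switch on ethylene response factors. In tomato, ETR3 is the gene of the Never-ripe mutant, whose fruit do not ripen normally. The title and design of the study ask whether the Ex2 method recovers mRNAs of secreted and endomembrane proteins, and these membrane proteins have soluble partners in the same pathway to be set beside them.

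The 6 genes gave their highest signal on the Ex2 array without exception. Between Ex2 and Ex1, EIN2, the signal carrier downstream of the receptors, differed most of the 6, and the ripening-associated receptor genes ETR3 and ETR4 least. Between the pellet and Ex2, EIN2 again differed most, and ETR2 least. Between the pellet and Ex1 the genes divided, with ETR1, ETR6 and EIN2 above 0 and ETR2, ETR3 and ETR4 below. On the deposited scale, the CTR and EIL genes, whose proteins are soluble, differed less in both comparisons that include Ex2. Every difference is between single arrays, so the spread between samples is unknown and no test was possible.

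The deposited values are probe set intensities, and a probe set's level is compared with its own level on another array; between probe sets, levels serve only to sort them by brightness. EIN2 had an intensity of 193 on the pellet array, 1176 on Ex2 and 131 on Ex1. The Ex2 value stood apart, and the Ex1 value lay under 175, the median of all non-control values, used here as the brightness floor. Differences were taken on log2(intensity + 1), which understates those of dim genes, and folds are on that scale. By this measure EIN2 was 8.91-fold higher in Ex2 than in Ex1 and 6.08-fold lower in the pellet than it was in Ex2. It was the third lowest of 499 named genes in pellet minus Ex2 and ranked 7 from the highest of 495 in Ex2 minus Ex1.

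ETR1, a receptor of the subfamily with a conserved histidine kinase domain, had an intensity of 361 on the pellet array, 1456 on Ex2 and 238 on Ex1. All 3 values were above the floor, and the pellet lay 1.52-fold above Ex1. ETR2, of the same subfamily, had 206 on the pellet array, 686 on Ex2 and 226 on Ex1. Its pellet and Ex1 values were close, at a log2 difference of -0.13. That is less than the 0.18 by which different probe sets of 1 gene typically lay apart in pellet minus Ex1 (median of 25 genes), a gap measured within arrays and not between samples.

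ETR3, listed as LOC544279, encodes a receptor of that subfamily that lacks the receiver domain found in ETR1 and ETR2. It had an intensity of 2153 on the pellet array, 8857 on Ex2 and 4058 on Ex1. Here Ex1 lay between the others, 1.88-fold above the pellet. ETR4, a receptor of the other subfamily, whose kinase domain is degenerate, showed the same order, with 2152 on the pellet array, 7508 on Ex2 and 3583 on Ex1. In both genes the Ex2 value was little more than 2-fold above Ex1, 2.18-fold for ETR3 and 2.09-fold for ETR4.

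ETR6, of the ETR4 subfamily, had an intensity of 134 on the pellet array, 633 on Ex2 and 113 on Ex1. It was above the floor on Ex2 alone, 5.54-fold higher there than on Ex1, and its pellet and Ex1 values differed by 0.24 on the log2 scale. ETR5, the remaining receptor gene named on the array, is outside the rule and was below the floor on all 3 arrays, with 30.9 on the pellet array, 160 on Ex2 and 46.3 on Ex1. Its highest value was also the Ex2 one, and its order of arrays was that of ETR2, ETR3 and ETR4.

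**Figure D1:**
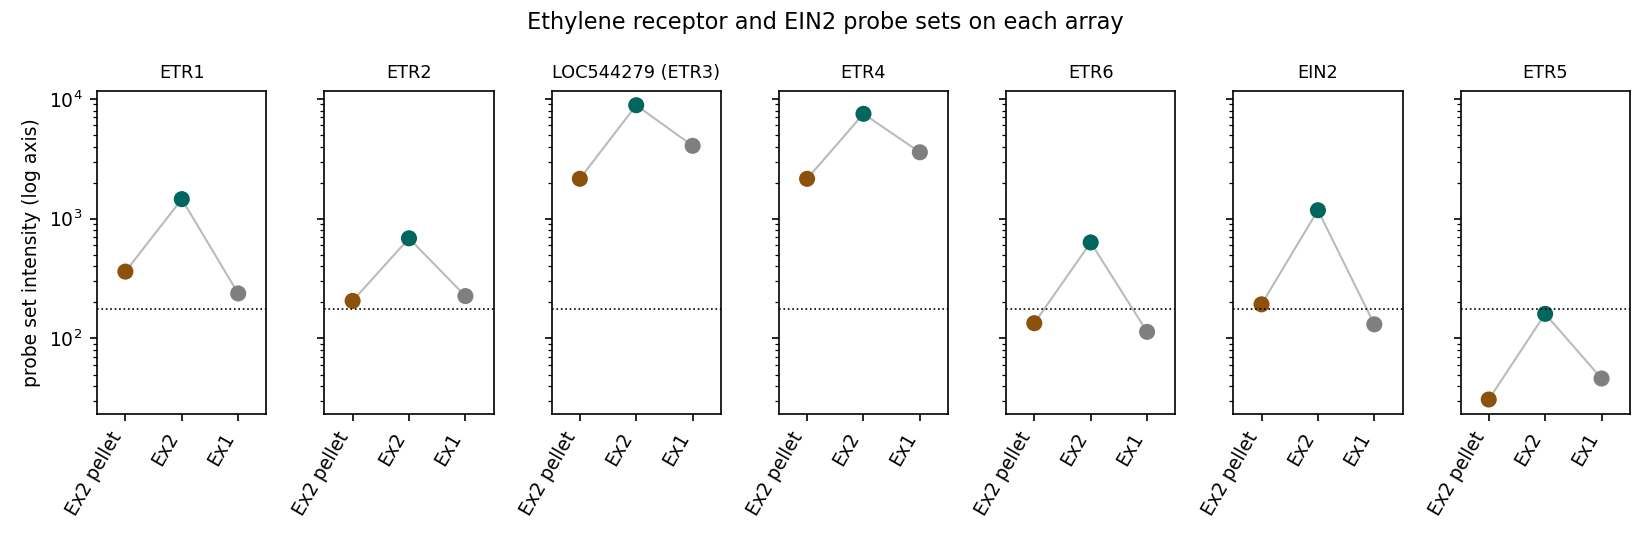
Intensity of the probe sets of the 6 genes and of ETR5 (vertical log axis) on the Ex2 pellet, Ex2 and Ex1 arrays, 1 point per array; the dotted line is the brightness floor of 175, and heights are not to be compared between panels. Every panel peaks at Ex2, with EIN2 at 1176, and Ex1 lies above the pellet in ETR2, LOC544279 (ETR3), ETR4 and ETR5.

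The comparison of Ex2 with Ex1 asks what the supernatant method recovered relative to direct phenol extraction. All 6 genes were at least 2-fold higher in Ex2, against 17.3% of 5568 probe sets and 20.2% of 495 named genes that reached the floor on either array. EIN2 and ETR6 reached it through their Ex2 value alone, and without the floor the count is also 6 of 6. The median log2 difference was 2.03, against -0.25 over those probe sets and -0.03 over those named genes. The differences spanned 2.09 on the log2 scale, from 1.07 for ETR4 to 3.15 for EIN2. Relative to ETR4, EIN2 thus moved 4.25-fold further, a contrast within the same pair of arrays that a constant scaling of an array leaves nearly the same. ETR1 and ETR6, from different receptor subfamilies, lay 0.14 apart, and ETR3 and ETR4, also from different subfamilies, 0.06 apart. ETR1 and ETR2, of 1 subfamily, lay 1.01 apart.

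The arrays also differed in control signals. Bacterial spike RNAs added at hybridisation (21 probe sets) were 2.33-fold brighter at the median on Ex2 than on Ex1. The probe set for 25S ribosomal RNA had 568 on the pellet array, 367 on Ex2 and 1809 on Ex1. The 3' to 5' signal ratio of the actin control, a measure of RNA integrity and labelling, was 1.35 on the pellet array, 1.71 on Ex2 and 1.20 on Ex1. Epidermal markers (2 of 4 listed were on the array, TSW12 and LE16) summed to 2073 on the pellet array, 1928 on Ex2 and 695 on Ex1. Green tissue markers (2 of 7, CAB4 and PSBR) summed to 11328 on the pellet array, 6188 on Ex2 and 9819 on Ex1. The listed vascular and seed markers matched no named probe set. The part of these signals in the gene values was not tested. In such extracts fewer cells of a type, less RNA per cell and less recovery of the markers' RNA by the method cannot be told apart. Scaled on the spikes, ETR3 and ETR4 turned to -0.10 and -0.15 for Ex2 minus Ex1, ETR2 was at 0.38, and EIN2, ETR1 and ETR6 stayed past 2-fold at 1.94, 1.39 and 1.25. With scaling on RPL3 and RPL8, which encode ribosomal proteins, all 6 lay between 1.61 and 3.70.

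**Figure D2:**
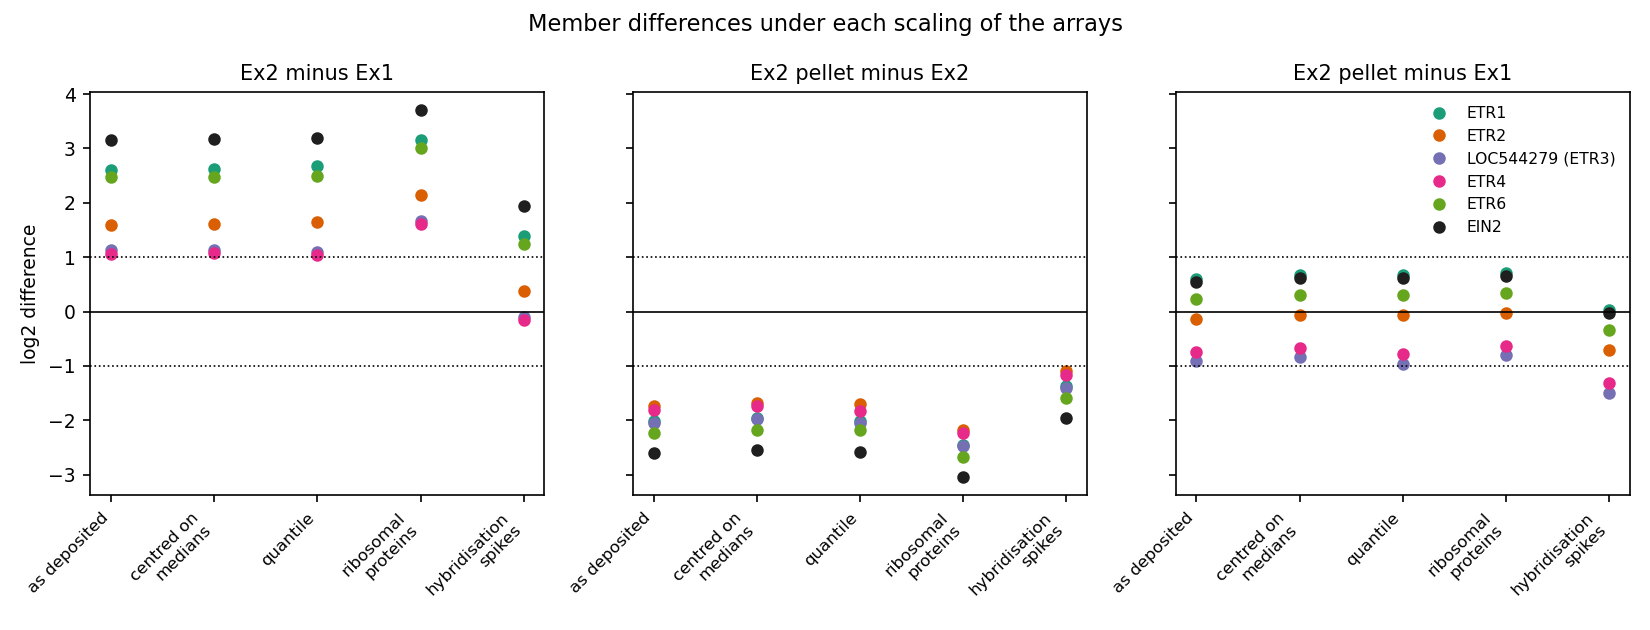
Log2 differences of the 6 genes (vertical axis, 1 point per gene) for the 3 comparisons under the deposited scale and the other scalings of the arrays; dotted lines mark 2-fold. For Ex2 minus Ex1, spike scaling placed ETR3 and ETR4 just below 0, while pellet minus Ex2 stayed beyond 2-fold for all 6 genes under each scaling shown, from -1.09 to -3.04.

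ETR3 and ETR4 were among the probe sets with the strongest signal, where 2-fold differences were rarer. When the probe sets past the floor were split into 4 groups of equal size by mean log2 level, 11.2% of the brightest group, which holds ETR3 and ETR4, were at least 2-fold higher in Ex2 than in Ex1. In the next to dimmest group, which holds ETR1, ETR2 and EIN2, the share was 16.5%, and in the dimmest, with ETR6, 26.2%. The dimmest group reached down to a mean of 5.88, under the floor of 7.46 on the log2 scale. Such probe sets passed only through a brighter array, so the floor itself selects for differences in that group. The part of signal strength in the smaller differences of ETR3 and ETR4 was not tested. Their highest values, 8857 and 7508, were below the array's top value of 17521. Whether signals were compressed at such levels was not tested.

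The comparison of the pellet with Ex2 sets RNA from the debris against RNA from the supernatant of such a spin. It shares the Ex2 array with the comparison above, and pellet minus Ex1 is the sum of these differences, so the 3 comparisons are not independent. All 6 genes were at least 2-fold lower in the pellet, against 19.8% of 5538 probe sets and 21.4% of 499 named genes. ETR6 reached the floor here through its Ex2 value alone. The median of the 6 was -2.02, against 0.07 over those probe sets and -0.07 over those named genes. The genes lay closer together here, within 0.87 on the log2 scale, from -1.73 for ETR2 to -2.60 for EIN2. ETR6 was 4.70-fold, ETR3 4.11-fold, ETR1 4.02-fold, ETR4 3.49-fold and ETR2 3.32-fold lower in the pellet. ETR5 was 5.06-fold lower. The spikes were less bright on the pellet array than on Ex2, at a median ratio of 0.638.

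**Figure D3:**
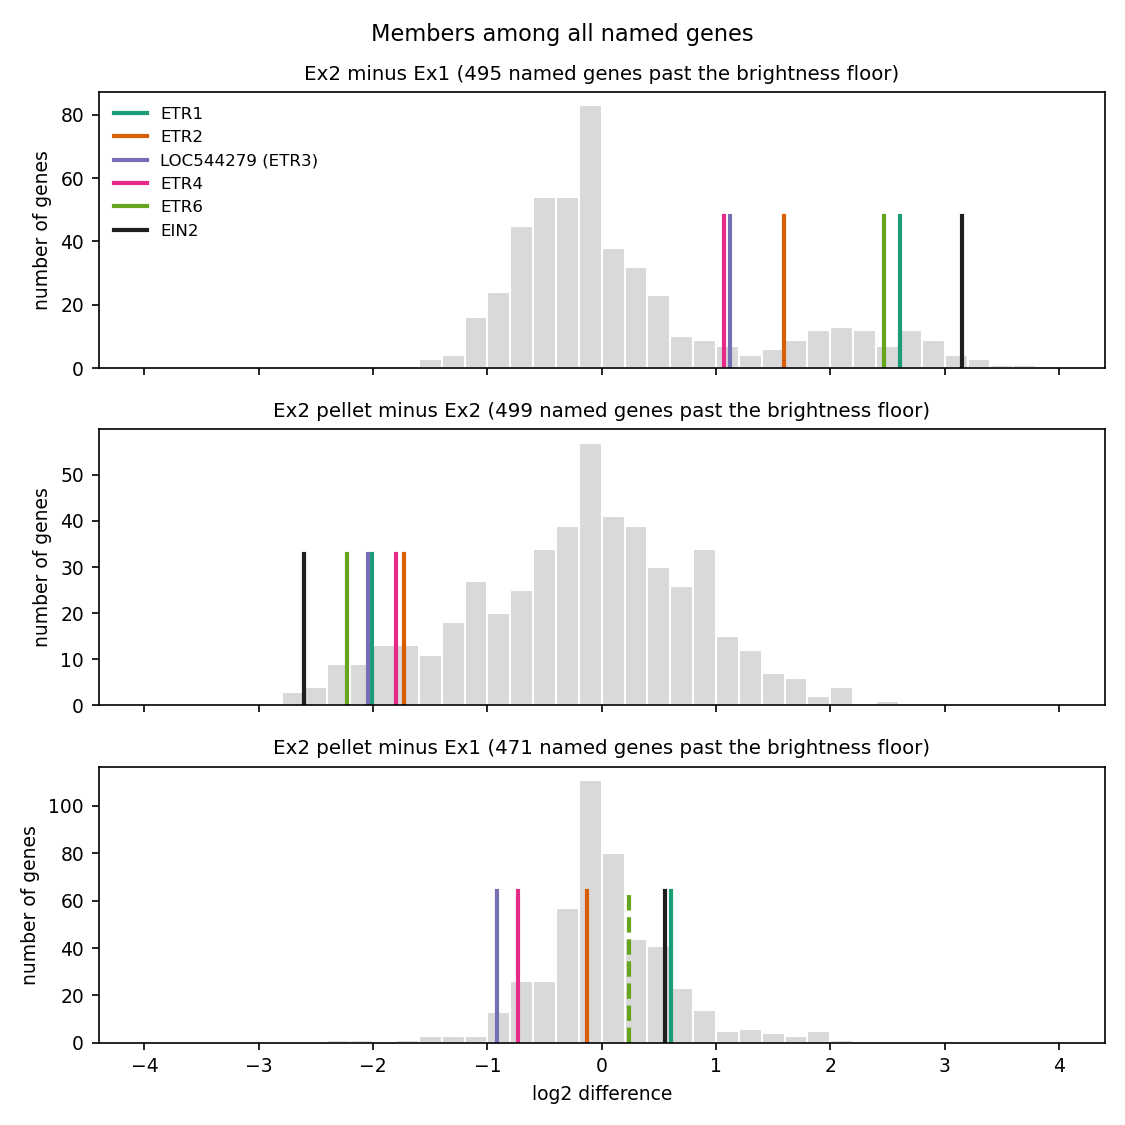
Numbers of named genes past the brightness floor (vertical axes) by log2 difference (horizontal axis) for the 3 comparisons, with a coloured line for each of the 6 genes, dashed where the gene was below the floor. All 6 lines lie at 1.07 or above for Ex2 minus Ex1 and at -1.73 or below for pellet minus Ex2, and on both sides of 0 for pellet minus Ex1.

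The comparison of the pellet with Ex1 found none of the 6 genes 2-fold apart. Over probe sets past the floor, a 2-fold difference upward in the pellet was found for 3.78% and one downward for 4.78%, and over named genes these shares were 5.10% and 2.55%. ETR1 was at 0.60, EIN2 at 0.55 and ETR6 at 0.24. ETR2 was at -0.13, ETR4 at -0.74 and ETR3 at -0.91. The median was 0.05 over all 6 and -0.13 over the 5 that reached the floor, ETR6 being below it on both arrays. ETR1 and ETR3 lay 1.52 apart. Scaled on the spikes, ETR3 and ETR4 were at -1.50 and -1.32, and ETR1 alone lay above 0, at 0.02. ETR3 ranked 18 from the lowest of 471 named genes on the deposited scale.

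The soluble partners were taken from a list of 13 symbols, of which 8 were on the array: the kinase genes CTR1, TCTR2, CTR3 and CTR4, and the transcription factor genes EIL1, EIL2, EIL3 and EIL4. CTR1 had an intensity of 201 on the pellet array, 442 on Ex2 and 363 on Ex1. EIL2 had 1198 on the pellet array, 2184 on Ex2 and 1944 on Ex1. For both, Ex2 was again the highest array, but only narrowly above Ex1.

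None of the 8 was 2-fold apart between Ex2 and Ex1. The same held for most probe sets past the floor, of which 17.3% passed 2-fold upward. By brightness group, 8.4% to 12.1% passed it downward. Their differences ran from 0.15 (CTR4) to 0.51 (EIL3), with a median of 0.32 that became -0.90 with scaling on the spikes. The 6 membrane protein genes lay above them with no overlap, by a gap of 0.55 between ETR4 and EIL3, and the medians were 1.72 apart. CTR4 was below the floor on all 3 arrays, with 69.7 on the pellet array, 146 on Ex2 and 132 on Ex1. Between the pellet and Ex2, 5 of the 8 were at least 2-fold lower in the pellet, or 4 of the 7 without CTR4, beside the 19.8% of probe sets and 21.4% of named genes past the floor. All 5 lay close to the threshold, from -1.01 (EIL4) to -1.13 (CTR1). The median of all 8 was -1.02. It became -0.96 with the arrays centred on their medians, -0.38 with scaling on the spikes and -1.46 with ribosomal proteins. The count of 5 thus depends on the scale. The 6 genes lay below all 8, by a gap of 0.60 between ETR2 and CTR1. Between the pellet and Ex1 all 8 soluble genes were lower in the pellet, from -0.25 (EIL1) to -0.91 (CTR4), and this range held ETR4, with ETR3 just beyond its lower end. Over all probe sets past the floor the median there was 0, with an interquartile range of -0.29 to 0.31. That these sets divide was known from an earlier reading of these arrays, so the gaps are descriptions.

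**Figure D4:**
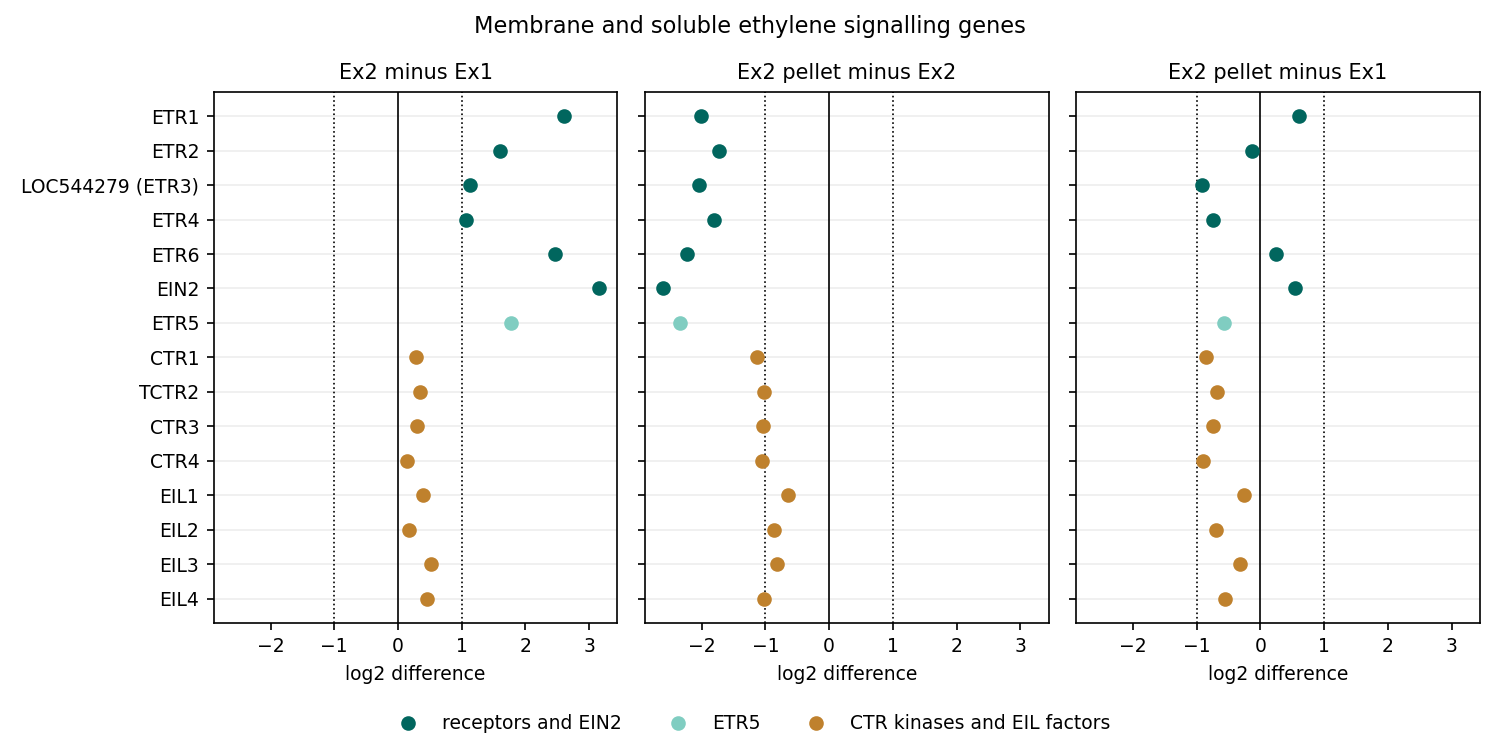
Log2 difference (horizontal axes; dotted lines at 2-fold) of the 6 genes, ETR5, and the 8 soluble CTR and EIL genes in each comparison, 1 point per gene. The membrane protein genes and the soluble genes do not overlap for Ex2 minus Ex1, where the soluble genes reach at most 0.51, nor for pellet minus Ex2, and they overlap for pellet minus Ex1.

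At the ends of the pathway the values differed again. Of 12 genes on the ethylene synthesis list, which holds E8, none was 2-fold apart between any of the arrays. Nor were most probe sets past the floor. In Ex2 minus Ex1, 17.3% were past 2-fold on the higher side and, by brightness group, 8.4% to 12.1% on the lower. The higher and lower shares were 17.0% and 19.8% in pellet minus Ex2, and 3.78% and 4.78% in pellet minus Ex1. ACS3, ACS6, ACS7 and ACS8 were below the floor on each array. ACS1A, an ACC synthase gene, was furthest from 0 in both comparisons with Ex2, with 394 on the pellet array, 215 on Ex2 and 332 on Ex1. E8, a ripening gene induced by ethylene, had the same 10417 on the pellet and Ex2 arrays and 10548 on Ex1. Of 11 ethylene response factor genes, 10 were below 0 for Ex2 minus Ex1. Their median was -0.52 over all 11 and -0.67 over the 8 that reached the floor, beside -0.25 over all probe sets past the floor (interquartile range -0.69 to 0.31), and that over all 11 became 0.02 with scaling on ribosomal proteins. PTI6 was lowest at -1.13, from intensities under the floor on all arrays, and JERF1, the brightest, was at -0.11. PTI4, the factor known for interacting with the Pto kinase, had 1421 on the pellet array, 659 on Ex2 and 1283 on Ex1, the reverse of the receptor pattern. For pellet minus Ex2, PTI4, ER24 and LOC606712 (older name TERF1) were past 2-fold on the higher side, as were 17.0% of probe sets past the floor. The median of all 11 there was 0.51. It became 0.08 with scaling on ribosomal proteins, with 6 genes above 0 and 5 below, and 1.12 with scaling on the spikes. RAN1 also matched a listed symbol of a receptor partner, but the annotation does not say whether it is that copper transporter or the like-named small GTPase, so its values are not read here.

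The matched genes of the pump, transporter and receptor-like protein lists, and HMGR, were also highest on Ex2, except AMT1-2. AMT1-2 had 10.9 on both the pellet and Ex2 arrays. Of 13 pump and transporter genes, 9 were at least 2-fold higher in Ex2 than in Ex1, beside the 17.3% of probe sets and 20.2% of named genes past the floor. HT2 and NHX1 among the 9 were below the floor on both arrays, as were the 4 others, HT1, PT2, LCA1 and AMT1-2. LHA1, HT3, NHX2, SUT2 and SUT4 reached it through their Ex2 value alone. The median was 1.98 over all 13 and 2.65 over the 7 that reached the floor, against 2.03 for the 6 ethylene genes. HMGR, the sterol pathway enzyme anchored in the endoplasmic reticulum membrane, had an intensity of 101 on the pellet array, 280 on Ex2 and 91.5 on Ex1, or 3.03-fold higher in Ex2 than in Ex1, the same fold as ETR2. The receptor-like protein gene Eix1, of the cell surface, had 703 on the pellet array, 3452 on Ex2 and 664 on Ex1. The other matched genes of its list, Ve2 and Ve1, were at 2.36 and 0.26 for Ex2 minus Ex1. Ve1 was below the floor on all arrays.

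For each of the 6 genes, the 3 named genes with the nearest pattern were found among 501 others that reached the floor on any array. The measure was the Euclidean distance between log2 values over the 3 arrays, each centred on its gene's mean. EIN2 lay nearest to the beta-galactosidase genes TBG3 (distance 0.10) and TBG5 (0.12), which encode secreted wall enzymes, and to the plasma membrane proton pump gene LHA1 (0.17). TBG3 was 8.67-fold higher in Ex2 than in Ex1, near the 8.91-fold of EIN2. ETR1 lay nearest to LOC543698 (0.11), the phosphate transporter gene PT1 (0.12) and LOC778302 (0.14). ETR6 lay nearest to Eix1 (0.11), the endoglucanase gene CEL8 (0.11) and the antiporter gene NHX2 (0.19).

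ETR2 lay nearest to DEM2 (0.13), the calcium-dependent kinase gene CDPK1 (0.16) and SUT2 (0.19), of the sucrose transporter family. ETR4 and ETR3 were 0.17 apart, the single case of one of the 6 being among the nearest of another. ETR3 lay as near to loxC (0.17), a lipoxygenase gene of fruit volatiles, and next to FLACCA (0.41), which encodes a molybdenum cofactor enzyme. ETR4 was followed by the plastid isoprenoid enzyme gene DXS (0.30) and FLACCA (0.33), distances above the 0.19 that the neighbours of ETR1, ETR2, ETR6 and EIN2 reached at most. Distances over 3 arrays rest on few values and describe these arrays only.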

How the data were processed

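The deposited table holds 1 intensity value per probe set and array on a linear scale, as the range of the values shows; GCOS 5.0 and RMA are named per the submitters' processing notes, with no order or parameters. It has 10209 probe sets, 171 of them controls, and 0 columns of other samples. The arrays' medians over non-control probe sets were 170.0 (pellet), 177 (Ex2) and 179 (Ex1). Each value is therefore relative to the rest of its extract and gives no amount per g of tissue, and the number of arrays limits the precision.

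Probe sets were named from the platform annotation, updated by Entrez ID from RefSeq's genes of the SLM_r2.1 assembly, which held 885 of 909. Older symbols were used only where no current or platform symbol matched. A gene with several probe sets was read by the one with the highest mean. Differences used a pseudocount of 1 and a threshold of 2-fold. A gene or probe set entered a background share if its brighter value on the compared arrays reached 175 (7.46 on the log2 scale). The members and gene lists were chosen with earlier results of these data known. The named genes were all members, the members of each ethylene list furthest from 0 or brightest, and the 3 nearest patterns. PTI4, ER24, LOC606712, HMGR, Eix1, Ve1 and Ve2, and the transporters named by their place at the floor, were named after their values were seen. The planned comparison of protein features was not run, and sequences and coordinates were not used here. The code was tested on simulated data and run in Python 3.11.15 with pandas 2.3.3 and NumPy 2.4.6.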

Additional observations from a re-analysis of the deposited data

How the results depend on the processing

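The limits are 1 array per group, 1 probe set per gene, and a scale that rests on the normalization. No paired analysis was possible because each group has 1 array, and no array could be left out. In all, 11 alternatives were run. A value was taken as moved when it shifted by more than the median gap between probe sets of a gene, which was 0.22 in Ex2 minus Ex1, 0.38 in pellet minus Ex2, and 0.18 in pellet minus Ex1. Among the counts, the medians over members and the gap to the soluble genes, 73 values stayed within that gap (counts within 1.5 times) and 14 moved. Among differences of single genes, 132 stayed, 28 moved and 2 that were past 2-fold reversed. Many of the 132 could not have moved. Each member has 1 plain probe set, so averaging probe sets or leaving out cross-hybridising designs changes no single-gene value. Raising or dropping the floor changes none either, because the floor only chooses genes. The 73 also hold values of this kind, so these tallies do not measure stability. EIN2 and ETR6, not 2-fold apart in pellet minus Ex1, also changed sign there with spike scaling, to -0.03 and -0.34.

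Spike scaling shifted the overall median of the non-control probe sets by -1.21 (Ex2 minus Ex1), 0.63 (pellet minus Ex2) and -0.58 (pellet minus Ex1), and ribosomal protein scaling by 0.54, -0.44 and 0.11 in that order. With the spikes, 3 members were 2-fold apart in Ex2 minus Ex1 in place of 6, and 2 in pellet minus Ex1 in place of 0. ETR3 (LOC544279) and ETR4 reversed in Ex2 minus Ex1, to -0.10 and -0.15. The medians over members became 0.82 (Ex2 minus Ex1), -1.38 (pellet minus Ex2) and -0.71 (pellet minus Ex1). With ribosomal proteins they were 2.58 (Ex2 minus Ex1) and -2.46 (pellet minus Ex2). With the floor at the upper quartile, the medians were 1.599 (Ex2 minus Ex1) and -0.82 (pellet minus Ex1), and with no floor the median log2 difference of members in pellet minus Ex1 was 0.053. The median of the soluble genes minus that of members was -1.69 in Ex2 minus Ex1 and became -1.17 at the upper quartile. In pellet minus Ex1 it was -0.55, became 0.39 at the upper quartile, and was -0.74 with no floor. The upper quartile, 637, drops dimmer genes. In pellet minus Ex1 it leaves only ETR3 and ETR4 of the members and only the EIL genes of the soluble list. At a 1.5-fold threshold, 3 members were apart in pellet minus Ex1. The count of 6 in pellet minus Ex2 held with each scaling, pseudocount 16 and 3-fold. It was 5 at the upper quartile, which ETR6 misses. Other settings could not lower it. Centring on medians and quantile normalization shifted this comparison by only 0.06 and 0.04 at the median, so they could hardly change the count.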
